A study of Drosophila melanogaster with 8 samples.

Results

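Peaks of accessible chromatin were compared between mutant and wild-type (WT) Drosophila melanogaster embryos collected at 2.5 to 3 h. The peaks of the 4 libraries of this window, 2 WT and 2 mutant, were merged wherever they overlapped by at least 1 bp, which gave 27661 regions, against 38545 when all 8 libraries of the study were merged. A region was called lost when both WT libraries and neither mutant library held a peak in it, gained when the genotypes were the other way round, and kept with a peak in all 4 libraries. Of the 27661 regions, 1946 were lost (7.04%), 1903 were gained (6.88%) and 11491 were kept (41.5%). The remaining 12321 regions (44.5%) were called in some other combination of libraries and were assigned to no class of change.

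The libraries were made by ATAC-seq, in which the Tn5 transposase inserts sequencing adapters into open DNA, from nuclei of whole dechorionated embryos. The study holds 4 groups of 2 libraries, with WT and mutant embryos both in this window and in an earlier one of 1 to 1.5 h. Its question is the role of IntS11, which it examined in mutant embryos. Every library title, WT or mutant, carries the words IntS11 mislocalized, so the text takes it, without a label that says so, that the mislocalized protein marks the mutant. The labels give no strain, no allele, no driver or clone, and no statement that the replicates were separate collections of embryos. The p-values therefore reflect the spread among these libraries alone, and that spread may be technical. Each whole-embryo library mixes all cell types, so a peak open in fewer nuclei and a peak less open in each nucleus cannot be told apart.

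IntS11 is the endonuclease of the Integrator complex, which cleaves nascent RNA at snRNA genes and near the promoters of many protein-coding genes, where it ends transcription by paused RNA polymerase II. The fly embryo starts with maternal RNA and protein, and its own genome is switched on in a minor and then a major wave of zygotic transcription. Pioneer factors such as Zelda, GAGA factor (encoded by Trl) and CLAMP help to open promoters and enhancers before and during that switch.

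Each deposited list held only the chromosome, start and end of its peaks, so the sequencing depth is unknown, and an uncalled region is not thereby shown to be closed. The 4 late lists held 18440 to 19995 peaks, of which the shortest was 154 to 156 bp in WT and 148 to 149 bp in the mutant. Of 8 blastoderm marker genes (hb, Kr, eve, ftz, sna, twi, zen and nullo), 7 or 8 had a peak at a gene end in each late library, so the embryonic label held. Of 10 follicle cell markers, the chorion and vitelline membrane genes of the ovary, 1 and 0 had a gene-end peak in the WT libraries and 5 and 2 in the mutant libraries. Of 9 hemocyte, fat body and yolk markers, 2 and 2 had one in WT and 5 and 3 in the mutant.

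Lost and gained regions were close in number but not in place. Both WT libraries called 15410 regions, of which the lost ones were 12.6%, and both mutant libraries called 14579, of which the gained ones were 13.1%. With 1 library left out the rule asks for fewer calls, and without each library in turn 2866 to 3710 regions were lost and 2453 to 4713 gained. The end of an annotated gene, within 250 bp, lay at 27.4% of the lost regions, 17.0% of the gained ones and 42.8% of the kept ones. Both ends of genes count here, because the gene table used gives no strand. Regions wholly inside genes and away from their ends were 56.6% of the lost class, 66.3% of the gained class and 44.7% of the kept class. These shares describe classes that the same calls defined and carry no test.

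Lost and gained regions were narrow. The median peak length was 262 bp in WT for lost regions and 278.5 bp in the mutant for gained regions. In kept regions it was 481 bp in WT and 449 bp in the mutant. At the edge of the rule, the 1973 regions called in both WT libraries and in 1 mutant library had a median WT length of 299 bp, and the single mutant peak there had a median of 235 bp. The 1185 regions called in both mutant libraries and in 1 WT library had a median mutant length of 299.5 bp and a median single WT peak of 232 bp. Most lost regions were not small shifts of a mutant peak. A mutant peak lay within 100 bp of 1.28% of lost regions and within 250 bp of 6.42%, and the median distance was 1161 bp. For gained regions, a WT peak lay within 250 bp of 3.78%, at a median distance of 2303 bp.

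Per library, the same late lists that defined the classes gave the following shares. Gene ends held 33.9% and 34.5% of the peaks of the WT libraries and 30.0% and 30.7% of those of the mutant libraries. Regions inside genes and away from their ends held 53.2% and 52.7% in WT and 57.1% and 56.7% in the mutant. Neither value overlapped between the genotypes (exact two-sided permutation p = 0.333, the smallest that 2 against 2 libraries allow), which restates the class shares and is no further support for them. None of the 35 permutation tests made here could pass 0.05 after Benjamini-Hochberg adjustment, the lowest adjusted p being 0.389.

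Gained regions were frequent toward the centromeres. Of 663 regions within 2 Mb of the centromeric end of a major chromosome arm, 87 were gained (13.1%) and 23 were lost (3.47%), while farther along the arms 6.75% were gained and 7.13% lost. This belt held 1.89% and 1.88% of the peaks of the WT libraries and 2.51% and 2.47% of those of the mutant libraries. At 1 to 1.5 h, in libraries that played no part in the classes, it held 1.79% and 1.72% in WT and 2.12% and 2.13% in the mutant. These early shares did not overlap either, with a difference of 0.369 percentage points and an exact two-sided permutation p of 0.333 (adjusted p = 0.389). The belt was chosen after the late lists were seen, so the late shares are a description. DNA near centromeres is rich in repeats, and the treatment of reads that map to several places is not given in the sources used here; its part in the result was not tested. Gained regions also lay farther from kept regions, at a median of 4387 bp, than lost regions did, at 2154.5 bp. Regions at least 5 kb from any gene were 7.99% of gained, 4.68% of lost and 4.06% of kept regions.

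Chromosomes differed little for lost regions, which were 6.47% to 7.33% of the regions on 2L, 2R, 3L, 3R and X. Gained regions were 6.08% to 7.12% of the regions on 2L, 2R, 3L and 3R, and 8.36% on X. On the small chromosome 4, which is largely heterochromatic, 18 of 291 regions were lost, 11 were gained and 151 were kept.

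The libraries of 1 to 1.5 h gave a readout at the same regions that the classes did not use. Lost regions were called in 53.3% and 51.3% of cases by the early WT libraries and in 18.0% and 12.6% by the early mutant libraries. The mutant was lower by 37.0 percentage points (the difference of 15.3% ± 3.78 and 52.3% ± 1.42, SD, n = 2 each), with an exact permutation p of 0.333. Kept regions were called in 86.9% and 85.4% by early WT and in 76.7% and 70.7% by early mutant libraries, which held fewer peaks in all (18706 and 15569 against 25201 and 23815). Divided by the share of kept regions called in the same library, the share of lost regions was 0.613 and 0.601 in WT and 0.235 and 0.179 in the mutant. Early mutant shares were also lower at regions of the other combinations, which are no class of change. Early WT libraries called 44.7% and 40.9% of those and early mutant libraries 25.3% and 19.6%, a difference of -20.3 points.

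At gained regions the early shares overlapped. The early WT libraries called 39.6% and 36.5% of them, and the early mutant libraries 40.4% and 32.5%. The groups overlapped, the difference was -1.60 percentage points, and the exact permutation p was 1.00. With peaks of at least 200 bp alone the difference was -10.7 points, and without mutant replicate 2 it was 2.31 points. Relative to kept regions in the same library, the share was 0.456 and 0.427 in WT and 0.527 and 0.460 in the mutant. This ratio separated the genotypes with the mutant higher (exact permutation p = 0.333). Without the ratio, peaks of at least 200 bp separated them with the mutant lower. The median early peak length was 280 and 272 bp in WT and 192 and 192 bp in the mutant, so that limit drops most early mutant peaks. The direction at gained regions thus depended on the measure, and the 200 bp limit acted unequally on the genotypes.

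**Figure D1:**
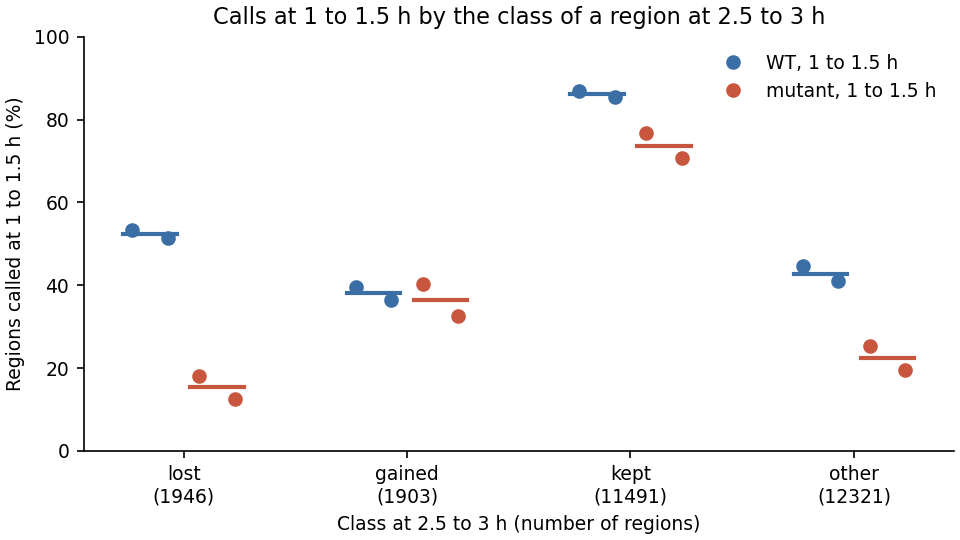
Share of regions called at 1 to 1.5 h (vertical axis, %) by their class at 2.5 to 3 h (horizontal axis, with the number of regions), with 1 point per early library and a line at the mean of each genotype. At lost regions the WT points lie at 53.3% and 51.3% and the mutant points at 18.0% and 12.6%, while at gained regions the genotypes overlap.

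By region, 820 lost regions (42.1%) were called in both early WT libraries. Of the lost regions, 527 (27.1%, against 8.02% of kept regions) were called in both early WT and neither early mutant library. A further 729 (37.5%) were called in neither early WT library, so at these a WT peak shared by both replicates was called in the later window only. Among gained regions, 534 (28.1%) were called in both early WT libraries, which makes them regions that WT embryos called early and did not call later. In both early mutant and neither early WT library 102 (5.36%) were called, against 1.80% of kept and 0.411% of lost regions. No early library called 642 of the gained regions (33.7%).

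The early contrast at lost regions was also seen among regions of like length. Among lost regions with a WT length up to 211.5 bp, the early mutant libraries called 18.9% and 13.4%, and among kept regions of that length they called 60.5% and 52.8%. The early WT libraries called 43.4% and 42.8% of those lost and 59.6% and 56.5% of those kept regions. Above 339.5 bp, the early WT libraries called 65.2% and 64.1% of lost regions and the early mutant libraries 22.7% and 13.9%.

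Kept regions were more often narrower in the mutant than wider. In 4525 of the 11491 kept regions (39.4%) both mutant lengths were below both WT lengths, and in 2079 (18.1%) both were above. The median log2 ratio of mutant to WT length was -0.09. At gene ends 43.2% were narrower and 16.6% wider, and inside genes 36.5% and 19.1%. The median length in kept regions was 485 and 477 bp in the WT libraries and 451 and 446 bp in the mutant libraries.

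**Figure D2:**
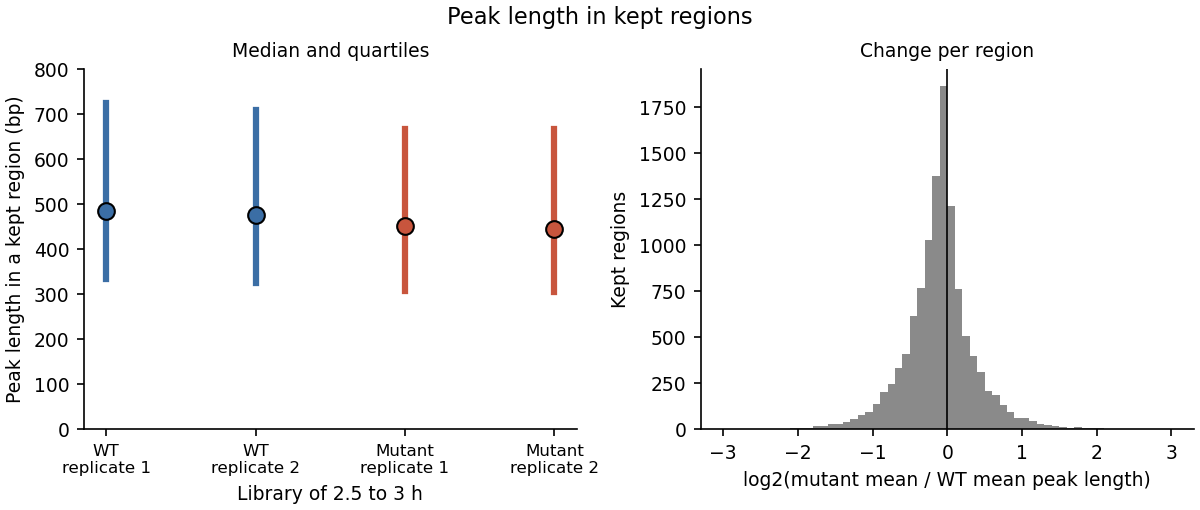
Peak length in the 11491 kept regions. The left panel gives the median (point) and quartiles (bar) in bp for each late library, with WT medians of 485 and 477 bp above mutant medians of 451 and 446 bp; the right panel counts regions by the log2 ratio of mean mutant to mean WT length, with a median of -0.09.

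The kept regions that narrowed most lay inside Lar, a receptor tyrosine phosphatase gene, at Upf2, a factor of nonsense-mediated mRNA decay, at CG5359, at lncRNA:CR45710 and inside Dab, which encodes a signalling adaptor. The Lar region (dm6, 2L, 19701806 to 19702867, also inside CG46244) measured 905 and 954 bp in WT and 157 and 160 bp in the mutant. That at Upf2 (X, 8074653 to 8075622) measured 878 and 970 bp in WT and 178 and 178 bp in the mutant. Widening was greatest in regions at CG34155 inside tmod, inside Sh, at aay, in an intergenic stretch nearest CG13970, and at Dgk. The region inside tmod, which encodes an actin filament capping protein, measured 192 and 209 bp in WT and 1115 and 1137 bp in the mutant. That in Sh, the gene of the Shaker potassium channel (X, 17940420 to 17941727), measured 176 and 219 bp in WT and 1155 and 1194 bp in the mutant.

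Some long genes held many lost regions. At or inside a gene, 6.80% of 24046 regions were lost and 6.59% were gained. At least 1 lost region lay at or in 1627 genes and at least 5 in 21, while for gained regions these were 1320 and 29 genes. The gene with the most was Ten-a on X, which encodes a teneurin, a transmembrane protein of cell adhesion and synapse formation, with 13 lost regions of 44. All 13 lay 194.4 to 283.8 kb from the lower-coordinate end of the gene, and 5 of them followed each other without another region between (X, 12238123 to 12253536). The widest by the shorter of its WT peaks measured 582 and 749 bp in WT (X, 12285678 to 12286525). The 4 gained regions of Ten-a lay elsewhere, 43.3 to 90.2 kb from that end, so the gene held WT-only and mutant-only peaks in separate stretches. At 1 to 1.5 h, 6 and 6 of the 13 were called in WT and 2 and 2 in the mutant.

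Ten-m, the related teneurin gene, had 9 lost regions and 0 gained of 49. The gene hth, whose homeodomain protein is a partner of the Hox proteins, had 10 lost of 51, spread along the gene from 0.4 to 130.0 kb. At 1 to 1.5 h, 5 and 5 of those in hth were called in WT and 4 and 4 in the mutant. In tkv, the gene of a type I receptor for the BMP ligand Dpp, 8 of 25 regions were lost, and 7 and 5 of them were called in early WT against 1 and 1 in early mutant libraries. The tkv region at 2L, 5247575 to 5248022 measured 406 and 440 bp in late WT and 396 and 430 bp in early WT, with no mutant peak in either window. In Hr4, a nuclear receptor gene of the ecdysone response, 7 of 23 were lost, called in 5 and 6 cases by early WT and in 0 and 2 by early mutant libraries. Next were lncRNA:CR44357 with 8, and bbg and sfl with 7 each, of which sfl encodes an enzyme of heparan sulfate synthesis.

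**Figure D3:**
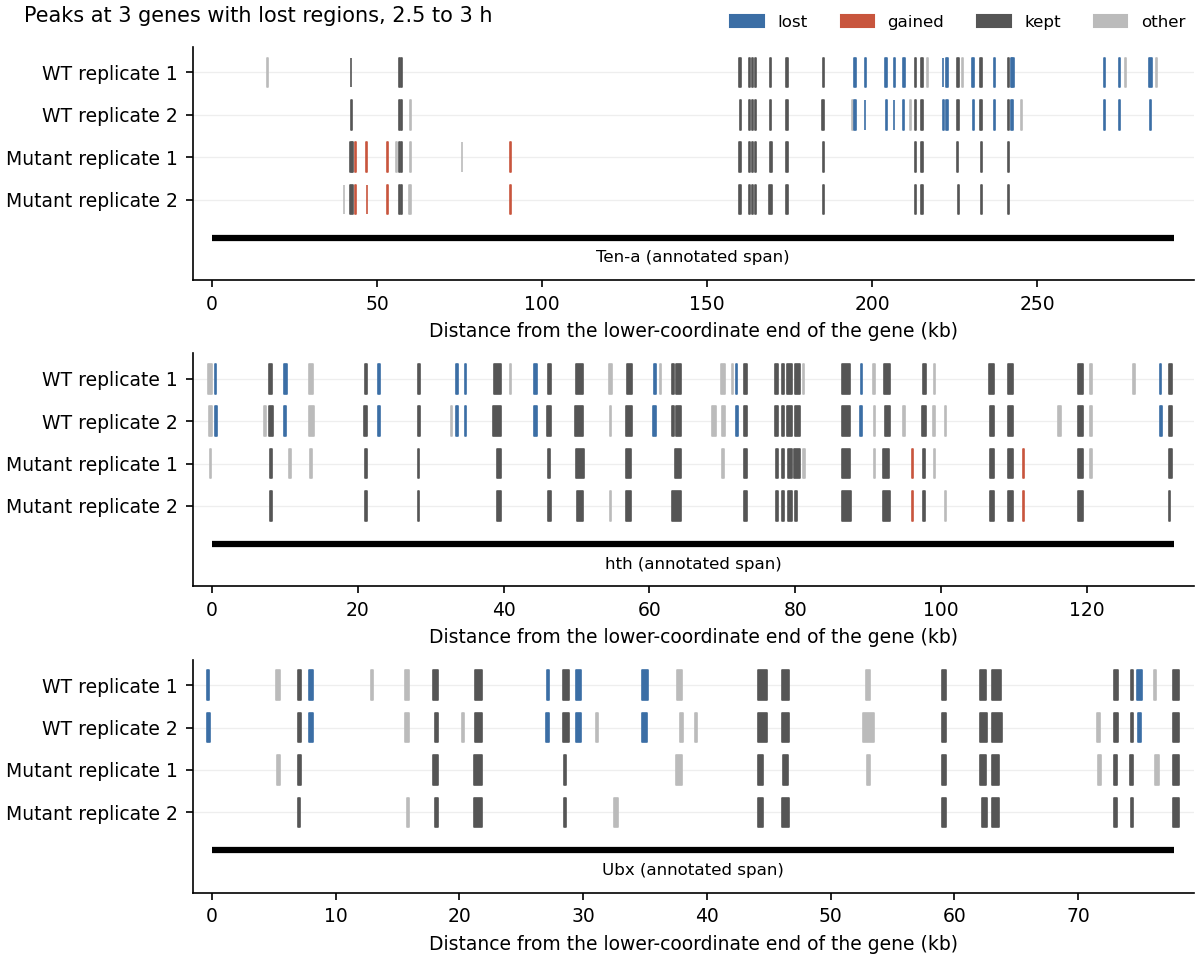
Peaks of each late library along Ten-a, hth and Ubx, by distance from the lower-coordinate end of the gene (kb). Bars are peaks coloured by the class of their region (lost, gained, kept, other), drawn with a thin outline that makes narrow peaks look wider than scale; the 13 lost regions of Ten-a lie between 194.4 and 283.8 kb and its 4 gained regions between 43.3 and 90.2 kb.

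Genes were also classed by peaks at their ends. Of 17807 genes in the table, 9429 had a gene-end peak in a late library. Of these, 677 were lost (7.18%), 283 were gained (3.00%) and 6029 were kept (63.9%). The number of genes with such a peak was 8087 and 7965 in WT and 7352 and 7264 in the mutant (exact permutation p = 0.333). The gene classes look only at the windows around gene ends, so a lost gene may lie beside a mutant peak that falls short of the window. Of the 677 lost genes, 471 (69.6%) had at least 1 gene-end peak in a lost region. The other 206 (30.4%) had theirs only in kept regions or in regions of other combinations. Some of the latter had no mutant peak, such as those at RpS18, each called in 1 WT library only. Of the 283 gained genes, 247 (87.3%) had at least 1 in a gained region. A gene lost its peak more often than it gained one among protein-coding genes (539 against 225 of 7955), lncRNA genes (70 against 28 of 658) and tRNA genes (27 against 1 of 206), but not among miRNA genes (6 against 7 of 87).

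The widest lost region at a gene end lay between Dph2, of diphthamide synthesis, and UQCR-C1, a subunit of respiratory complex III (3R, 14891390 to 14893065), and measured 958 and 1490 bp in WT. The next lay between Bap111, a subunit of the Brahma chromatin remodeler, and fh, the frataxin gene (X, 9149312 to 9150441), at 919 and 929 bp in WT. All early libraries called it, at 512 and 190 bp in WT and 127 and 101 bp in the mutant. Then came CG10874 at 890 and 1047 bp, tx, a bHLH factor gene, at 826 and 774 bp, and Jheh1, a juvenile hormone epoxide hydrolase gene, at 811 and 767 bp. The tx and Jheh1 regions were called in both early WT and neither early mutant library. The others of the 10 widest, at Ptp61F, CG18808, CG15877, CG4565 and CG1544, had late WT lengths of 624 to 1001 bp.

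Among gene groups, 38 lists were counted, and 34 of them held at least 20 regions. The lost share exceeded the gained share in 22 of these and was below it in 9. The members of these lists are described by counts beside the shares over all genes, without a test of the lists. The shares to read them against are 6.80% lost and 6.59% gained among regions at or in genes, and 7.18% lost and 3.00% gained among genes with a gene-end peak.

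Integrator subunit genes had 6 lost regions of 30 and 1 gained. Without IntS11 they had 5 lost of 26 (19.2%) and 0 gained. Of 11 with a gene-end peak, 3 were lost (27.3%, against 7.18% of all genes), 0 gained and 6 kept. The lost genes were defl, which encodes subunit 7, IntS10 and IntS9, the partner of IntS11 in the cleavage module. At gene ends, the peaks at defl measured 435 and 682 bp in WT, those at IntS10 205 and 273 bp and those at IntS9 269 and 204 bp, and no mutant library had one. All 3 had their gene-end peaks in lost regions. At IntS11 itself (3R, 29745337 to 29747513) a region at the lower end was lost and another, of 907 and 947 bp in the mutant, was gained. The gained region had 406 and 356 bp of peak in the early mutant libraries and no early WT peak. The allele is not described, and an edited locus could change which reads map there, so these regions were not read as changes in accessibility.

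Genes of the dorsal ectoderm and of BMP signalling, which pattern the dorsal side of the embryo, had 20 lost regions of 131 (15.3%, against 6.80% over all genes) and 4 gained (3.05%). Besides the 8 in tkv, 4 lay in shn, which encodes a zinc finger factor of the BMP response, 3 in ush, a FOG family factor gene, and 2 in tup, a LIM homeodomain gene. The ligand gene dpp, the signal transducer gene Mad and the T-box gene Doc1 had 1 each. The dpp region (2L, 2439118 to 2439513) measured 366 and 326 bp in late WT and 324 and 396 bp in early WT, with no peak in any mutant library. The group still kept 73 regions (55.7%), and at gene ends only tkv was lost and only Ance gained among 19 genes. Mesoderm and ventral furrow genes had 12 lost of 94 (12.8%) and 3 gained, with 3 lost in T48 and 2 each in twi, Mef2 and NetA.

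Neuroectoderm genes had 0 lost and 0 gained of 49 regions, and trunk gap genes 0 and 0 of 12. Pair-rule genes had 5 lost and 2 gained of 35, with 2 lost in opa and 1 each in run, hry and ftz-f1. Segment polarity genes had 4 lost and 1 gained of 98.

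Hox genes had 10 lost regions of 126 (7.94%), near the share over all genes, and 6 of the 10 lay in Ubx, which specifies the posterior thorax and first abdominal segment. The Ubx region at 3R, 16691383 to 16691828 measured 446 and 398 bp in late WT and 297 and 359 bp in early WT, with no mutant peak in either window. The other lost Ubx regions, at 165 to 416 bp in late WT, had no peak in an early mutant library either. Antp, the only Hox gene lost at a gene end, had late peaks of 451 and 468 bp there in WT and none in the mutant. At 1 to 1.5 h that region had 454 and 454 bp of peaks in WT and 130 and 98 bp in the mutant.

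Genes of pioneer factors and chromatin remodelers had 13 lost regions of 118 and 2 gained (1.69%). In zld, which encodes Zelda, 2 of 7 regions were lost and 5 kept. The lost ones measured 409 and 409 bp (X, 19777739 to 19778552) and 905 and 940 bp (X, 19779143 to 19780258) in WT. The region next to them (X, 19780554 to 19782346) was kept, at 1578 and 1548 bp in WT and 1743 and 1669 bp in the mutant. In Trl, a region of 286 and 277 bp in WT was lost and 3 regions were kept, and both regions at Clamp were kept. Of the remodeler genes, osa had 2 lost regions, and kis, E(bx), brm, Mi-2 and Ino80 had 1 each.

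Ecdysone and nuclear receptor genes, which time later development by steroid hormone, held regions of both kinds, with 27 lost (12.2%) and 16 gained (7.21%) of 222. Lost regions lay in Hr4 (7), Eip74EF, Eip78C and svp (3 each), and E23, Hr3, EcR and Eip75B (2 each), while Eip75B also had 5 gained. E23, an ecdysone-induced ABC transporter gene, lost both of its regions, of which the larger (2L, 3338685 to 3339754) measured 1046 and 1070 bp in late WT and 921 and 1070 bp in early WT. Both Hr3 regions were called in both early WT libraries and in 1 early mutant library. The peaks at 3 gene ends, those of ftz-f1, Eip78C and E23, were lost, and 14 of 20 were kept.

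The tRNA genes, transcribed by RNA polymerase III, lost their gene-end peaks at 27 of 207 genes (13.0%, against 7.18% of all genes) and gained 1, with 143 kept. For 23 of the 27 a peak lay in a lost region. Many lie close together, and in separate regions 20 of 139 were lost (14.4%) and 1 gained. The genes tRNA:Arg-ACG-1-9 and tRNA:Arg-ACG-1-10 shared their peaks, in a lost region of 619 and 602 bp in WT (3R, 8140511 to 8141129). At tRNA:Tyr-GTA-1-7 the region (3R, 8668608 to 8670042) was kept, at 1108 and 1124 bp in WT and 875 and 959 bp in the mutant, and the mutant peaks did not reach the gene-end window. These genes occur in near-identical copies, so the peak of a single copy is uncertain. Genes of mitochondrial respiration lost 8 of 61 gene-end peaks (13.1%, against 7.18%) and gained 0, with 41 kept, but a window of 500 bp left 4. Without mutant replicate 2, 14 were lost, while lost genes over the whole table rose from 677 to 1057. Of the 8, 4 had a peak in a lost region, such as ATPsynbetaL at 275 and 247 bp in WT, and by regions 9 of 124 were lost (7.26%), near the share over all genes. The region at COX4, of respiratory complex IV, was kept and measured 874 and 842 bp in WT and 173 and 222 bp in the mutant. That at ND-23, of complex I, measured 639 and 639 bp in WT and 338 bp in 1 mutant library. Cytoplasmic ribosomal protein genes lost 3 of 83 (3.61%) and kept 69.

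**Figure D4:**
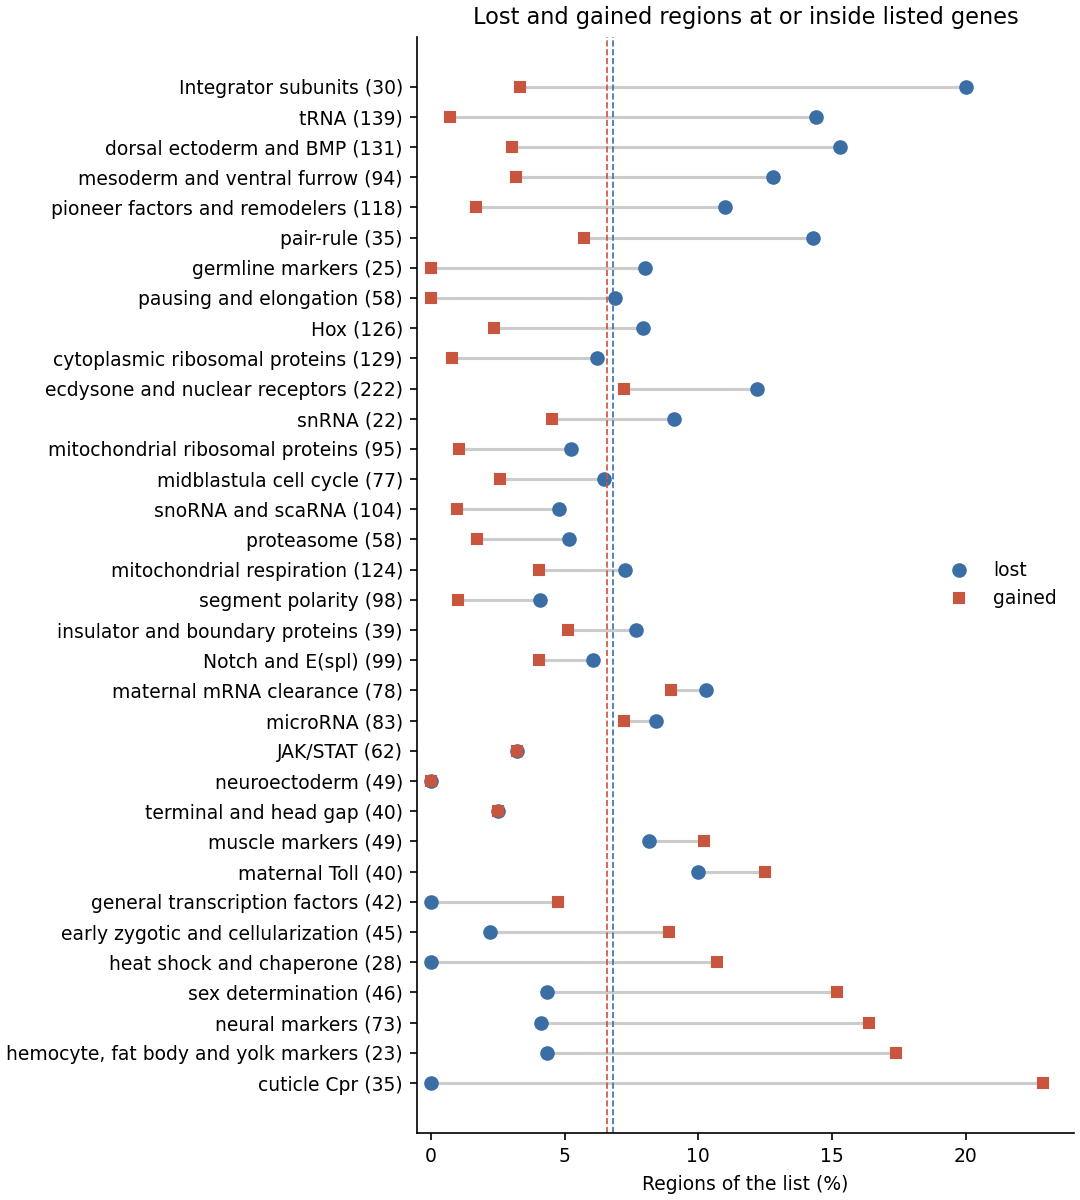
Share of the regions at or inside the genes of each list that were lost (circles) or gained (squares), in % on the horizontal axis, for the 34 lists with at least 20 regions (number of regions in parentheses). Dashed lines mark the shares over all genes, 6.80% lost and 6.59% gained; Integrator subunit genes lie highest for lost regions with 6 of 30 (1 of them at IntS11 itself), and cuticle Cpr genes highest for gained regions at 22.9%.

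Gained regions also came in rows. Stretches of at least 4 neighbouring regions that were all gained occurred 14 times, against 5 such stretches of lost regions. The longest, of 7 gained regions, lay in vex on X (11017576 to 11032102), a gene with 10 gained regions and 1 kept of 20. The widest of them measured 663 and 666 bp in the mutant (X, 11029450 to 11030115). No early WT library called any of the 10, and the early mutant libraries called 5 and 5. CG34353 also had 10 gained regions, of 25, none called in early WT and 5 and 4 called in the early mutant libraries. Both genes thus had mutant-only peaks in both windows.

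Myo81F, an unconventional myosin gene that spans 1965.9 kb at the base of 3R, had the most gained regions, 17 of 69, with 2 lost. CG17684 and Pzl, also long genes near a centromere, had 9 and 8. In kirre, which encodes an adhesion protein of myoblast fusion, 8 of 39 regions were gained. Other genes lie inside it, and gained regions of kirre touched w, the eye colour gene, and rst. The region at an end of w (X, 2790788 to 2791181) measured 394 and 337 bp in late and 299 and 334 bp in early mutant libraries, with no WT peak. A copy of w is a common transgene marker in flies, and whether the lines carry one is not given in the sources used here, so this region was not read as a change in accessibility.

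**Figure D5:**
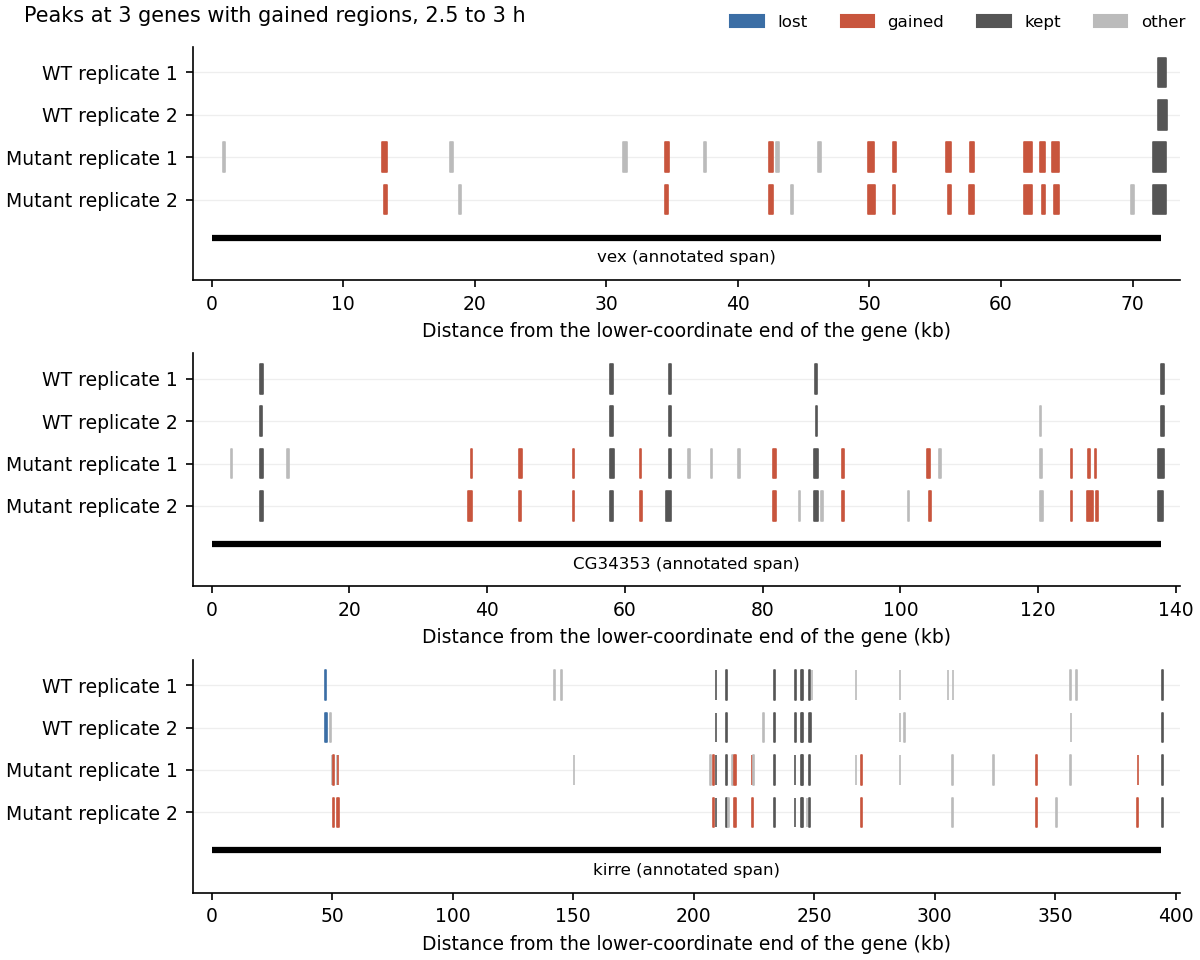
Peaks of each late library along vex, CG34353 and kirre, by distance from the lower-coordinate end of the gene (kb), with bars coloured by class and drawn with a thin outline that makes narrow peaks look wider than scale. The WT libraries held only the kept peak in vex, where the mutant libraries held 10 gained regions, and CG34353 had 10 gained and 5 kept regions.

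The widest gained regions at gene ends lay at CG9394 (2R, 21118344 to 21119724), with 1334 and 1162 bp in the mutant, and at Elba3 and CG11929 (2L, 4687365 to 4688675), with 1101 and 1311 bp. Elba3 encodes a subunit of the ELBA insulator complex. The CG9394 region was called in all early libraries, at 970 and 982 bp in WT and 418 and 388 bp in the mutant, so among late libraries only the WT ones lacked it. The Elba3 region had no early WT peak and 121 bp of peak in 1 early mutant library. Then came CG43190 with Sln, a transporter gene, IntS11, CG13054, CG13055, CG31211, fd19B, a forkhead factor gene, CG5111 and CG11294. The fd19B region (X, 20091736 to 20092632) measured 859 and 878 bp in the mutant and had no peak in any early library.

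Cuticle protein genes of the Cpr family, which form the exoskeleton late in development, gained such a peak at 7 of 18 genes (38.9%, where all genes had 3.00%), lost 0 and kept 3. By regions 8 of 35 were gained (22.9%, against 6.59%), and 6 of the 7 genes had their peak in a gained region. The exception was Cpr56F, whose region measured 984 and 540 bp in the mutant and 160 bp in WT replicate 2. Of the others, Cpr57A was the widest at 560 and 585 bp, and others, such as Cpr12A at 256 and 164 bp, were near the short end. With peaks of at least 200 bp, 4 of the genes were gained. Without mutant replicate 1 or 2 the gained Cpr regions numbered 18 or 15, while all gained regions rose from 1903 to 4089 or 4713.

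Marker genes of differentiated neurons and glia had 12 gained regions of 73 (16.4%, against 6.59% over all genes) and 3 lost (4.11%). They lay in para, the voltage-gated sodium channel gene (5), Appl, the amyloid precursor-like gene (3), brp, an active zone gene (2), repo, a glial factor gene, and Nrx-1 (1 each). The widest para region (X, 16466287 to 16467624) measured 1337 and 1129 bp in late mutant libraries and 390 and 557 bp in early mutant libraries, with no WT peak. At gene ends, all 6 genes of the list with a peak were kept and 0 were gained. The median log2 ratio of mutant to WT length in kept regions of the list was -0.18, against -0.09 over all genes. Of a smaller panel of 6 neural markers, 3 were called at gene ends in every late library. Their summed peak length was 2306 and 2146 bp in WT and 3017 and 2618 bp in the mutant. With peaks of at least 200 bp the neural list had 7 gained regions. Without mutant replicate 1 or 2 it had 23 or 24, while all gained regions rose from 1903 to 4089 or 4713. Sh, a neuronal channel gene outside the list and picked after its values were seen, had 7 gained regions, none called in early WT and 5 and 3 called in early mutant libraries.

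The sex determination list had 7 gained regions of 46 (15.2%, against 6.59%), and 6 of them lay in dsx, which directs sexual differentiation. Most of these were also called in the early libraries of both genotypes. Of the 6 dsx regions, 4 and 5 were called in the early WT libraries and 6 and 5 in the early mutant libraries. The region at 3R, 7930275 to 7930578 had 304 and 304 bp of peaks in early WT, 304 and 304 bp in early mutant, none in late WT, and 303 and 281 bp in late mutant libraries.

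Follicle cell genes gained Vm26Ab, at 645 and 425 bp in the mutant, and Cp15, at 186 and 249 bp, of 7 genes with a gene-end peak. Of the heat shock and chaperone genes, Hsp26, at 668 and 507 bp, and Hsc70-3, at 199 and 149 bp, were gained among 12. The summed length of gene-end peaks over the 10 follicle cell markers was 270 and 0 bp in WT and 1787 and 674 bp in the mutant. Over the 9 hemocyte, fat body and yolk markers it was 1730 and 1455 bp against 5573 and 3242 bp. Of the 5573 bp, 1873 bp came from Lsp1gamma, mostly from a kept region (3L, 67256 to 68816). That region measured 1284 and 1300 bp in WT and 1556 and 1164 bp in the mutant, but only the peak of mutant replicate 1 reached the gene-end window. The follicle cell, hemocyte, fat body and yolk sums come from the same late lists that defined the gained regions. They include gained peaks, such as those of Vm26Ab and Cp15, so they partly restate the gained calls and do not measure cell content. Whether such cells had a part in the gained cuticle, neural and other regions was not tested. At gene ends, 1, 1, 0 and 1 of 5 germline markers were called in the WT and then the mutant libraries. For muscle markers it was 3, 3, 2 and 3 of 6, so neither number was higher in the mutant. The summed peak length of the germline markers was 214 and 308 bp in WT and 0 and 240 bp in the mutant. For the muscle markers it was 2041 and 2298 bp in WT and 742 and 966 bp in the mutant, lower without overlap. By regions, the muscle marker list had 5 gained of 49 (10.2%, against 6.59% over all genes) and 4 lost (8.16%). The germline marker list had 0 gained and 2 lost of 25.

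Landmark genes of the early embryo mostly kept their gene-end peaks. Of 22 such genes, 17 were kept, Antp was lost, twi had a peak in 1 WT library only, and run, dpp and Trl had none in any late library. Over all genes with a gene-end peak, 63.9% were kept. The peaks touching the ends of the gap genes hb and kni measured 357 and 340 bp and 539 and 504 bp in WT, and 339 and 344 bp and 596 and 601 bp in the mutant. At gt, another gap gene, they measured 1856 and 1846 bp in WT and 1487 and 1500 bp in the mutant, without overlap. At Kr the direction was the reverse, with 356 and 461 bp in WT and 585 and 639 bp in the mutant. Among the landmarks the largest widening was at nullo, an early zygotic gene of cellularization, from 580 and 579 bp in WT to 1130 and 1551 bp in the mutant. At Ubx the gene-end peaks measured 658 and 638 bp in WT and 507 and 505 bp in the mutant. At en, a segment polarity gene, they measured 924 and 878 bp in WT and 969 and 935 bp in the mutant, a gap between the genotypes smaller than the spread within WT.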

How the data were processed

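ATAC-seq peak lists of 8 libraries, 2 in each of 4 groups taken from the library titles, were used as deposited. Per the submitters' processing notes, the build was dm6 and the tools named were MACS2 2.2.7.1, Bowtie2 2.2.5, Trimmomatic 0.39, deepTools 3.5.1 and SAMtools 1.18. How duplicates were treated, any shift for the transposase cut and all other settings are not given in the sources used. The authors deposited 1 list per library, with 3 columns (chromosome, start, end), so peaks were called per sample, and the lists hold no score, count or depth. No counting interval could be set, and peak length ranked regions. Coordinates are given 1-based.

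Regions, classes and lengths were computed with Python 3.11.15 and numpy 2.4.6, and the classes were tested on simulated peak lists. A region was called in a library with at least 1 bp of a peak in it. Lengths are summed bases of peaks in the region, and at gene ends the summed length of the peaks that touch the window. Gene positions came from a RefSeq table of the Release 6 assembly with 17807 genes and no strand, so 250 bp either side of both gene ends replaced the promoter. For lost and gained genes, the class of the region holding the gene-end peak was added after the data were seen. The table holds no exons, so exon or intron was not analysed here, and no sequence was at hand. Library values were compared by exact two-sided permutation of group means, with Benjamini-Hochberg adjustment over 35 tests.

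The members, the gene lists and the rules were chosen with earlier results of these data known. After the peak lists were seen, symbols in the gene lists were corrected to those of the gene table, 3 symbols without a match were dropped and the reductase gene Cpr was kept out of the cuticle list. The measures near centromeres, the distances, the rows of neighbouring regions, the ratio to kept regions and several loci shown (such as Sh, dsx, para, N and Dll) were also chosen then. The named genes were IntS11, the 10 widest lost and gained regions at gene ends by the shorter peak, the 5 kept regions that narrowed or widened most, up to 6 list members per list, the genes with the most lost or gained regions (the first 6 and ties), and 22 landmarks. Alternatives were peaks of at least 200 bp, calls that cover 25% of a region, lists of equal length, a window of 500 bp, leaving out each library, and a replicate block.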

Additional observations from a re-analysis of the deposited data

Results flagged for a closer look

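The mutant effect on the number of peaks differed between the windows. At 2.5 to 3 h the mutant libraries held 19995 and 19035 peaks and the WT libraries 19002 and 18440, while at 1 to 1.5 h they held 18706 and 15569 against 25201 and 23815. The effects differed by 8164.5 peaks (exact two-sided permutation p = 0.0556 over 36 arrangements, the smallest they allow, adjusted p = 0.389).

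The share of peaks on X moved in opposite directions in the windows. At 2.5 to 3 h it was 16.4% and 16.3% in WT against 16.9% and 16.7% in the mutant, and at 1 to 1.5 h 16.1% and 16.2% against 14.7% and 14.6%. The effects differed by 1.97 percentage points (exact permutation p = 0.0556, adjusted p = 0.389).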

How the results depend on the processing

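Counts of lost, gained and kept regions and of lost and gained genes stayed within 1.5 times of the reported counts with peaks of at least 200 bp (1862 lost and 1519 gained regions), equal list lengths (2086 and 1710), 25% of a region covered (2010 and 1969) and, for genes, a window of 500 bp (586 lost and 382 gained). The 25% setting was not run for genes, whose classes use peaks at gene ends rather than covered regions. The excess of mutant peaks, 794, became -17.5 when peaks under 200 bp were left out. The lost and gained counts rise when a library is left out, since the rule then asks for fewer calls. They ranged over 2866 to 3710 lost and 2453 to 4713 gained regions, 974 to 1057 lost and 381 to 593 gained genes, and 3235 to 3524 kept regions wider in the mutant (2079 with all libraries). The early difference at gained regions ranged from -5.52 to 2.31 percentage points, turning positive without mutant replicate 2. It was -4.18 with 25% covered and -10.7 with peaks of at least 200 bp, a limit above the median early mutant peak length. At lost regions it was -39.7 to -34.4.

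Among gene lists, peaks of at least 200 bp left 4 gained Cpr genes (7 reported), 1 gained follicle cell gene (2) and 7 gained neural regions (12), and the 500 bp window left 4 lost genes of mitochondrial respiration (8). Without each library in turn these were 7 to 10, 2 to 4, 12 to 24 and 8 to 14, and the gained Cpr regions 8 to 18. The list settings, the leave-one-out and 200 bp settings of early calls and all settings of widened regions were chosen after seeing the data, and the causes were not tested beyond the construction named.

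Replicate numbers pair nothing in the labels, and the correlation of replicate differences between genotypes over 27661 regions was -0.002. With the number as a block the differences are the same by construction (794 peaks, -353.1 kb covered, -25.0 bp median length, -3.88 points at gene ends, -718 genes, -37.0 and -1.60 points of early calls), and the smallest p a block allows is 0.5.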

Other observations

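Lost and gained regions also met in single genes of other groups. In pum, which encodes a translational repressor of maternal mRNAs, 5 regions were lost, 6 gained and 8 kept of 30. In N, the gene of the Notch receptor, 4 regions were lost and 1 gained, and the largest lost one (X, 3164535 to 3165170) measured 424 and 511 bp in late WT. In Dll, a homeodomain gene of the limb primordia, 5 regions were lost, with late WT lengths of 156 to 769 bp. Loci N and Dll were chosen after their values were seen.

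Of 87 miRNA genes with a gene-end peak, 6 were lost (6.90%, near the 7.18% over all genes) and 7 gained (8.05%, against 3.00%). By regions 7 of 83 were lost (8.43%, against 6.80% over all genes) and 6 were gained (7.23%, near the 6.59% over all genes). For 4 of the 6 lost genes a peak lay in a lost region. That at mir-1, of muscle (2L, 20486987 to 20487589), measured 589 and 599 bp in late WT, and a neighbouring region there was kept. At mir-10, in the Antennapedia complex, the region was kept and measured 1333 and 1361 bp in WT and 584 and 709 bp in the mutant, whose peaks did not reach the gene-end window. A row of 4 neighbouring lost regions spanned Osi5, Osi6 and Osi7 (3R, 6221866 to 6251053), of the Osiris gene cluster, and a row of 4 spanned tx and its neighbours (3R, 26428507 to 26453170). By regions, the JAK/STAT signalling list had 2 lost and 2 gained of 62 (3.23% each, against 6.80% and 6.59% over all genes). Of its 10 genes with a gene-end peak, 2 were lost, 0 gained and 8 kept. Of the 2 lost genes, the phosphatase gene Ptp61F lost a region at a gene end. The transcription factor gene Stat92E lost its gene-end peak within a kept region (3R, 20551585 to 20552350) of 756 and 757 bp in WT and 298 and 156 bp in the mutant.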
